A study of Mus musculus with 6 samples.

Results

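The proteasome is the protease that breaks down ubiquitin-tagged proteins, and its subunit genes were followed in the livers of mice given sulfasalazine. Members were 36 named subunit genes, taken from a table of 42612 loci. For 35 of them the row was the one that carries the gene's name and an Ensembl transcript. Psmd1 was found by its Ensembl transcripts, in a row that the table labels Armc9. A highest mean FPKM (fragments per length of transcript, scaled to the mapped fragments of the library) was to decide between several annotated rows of a gene, but 0 members had several, so FPKM chose no row. The 6 libraries were made from liver total RNA, depleted of ribosomal RNA, of males of the outbred ICR stock, aged 8 weeks per the labels. In 3 libraries the animals had been given 1000 mg/kg sulfasalazine in 0.1% DMSO by gavage over 4 weeks, and in the 3 controls an equal volume of 0.1% DMSO. Groups in the study held 10 animals, and the labels call the libraries triplicates without saying whether each is a separate animal, so p-values measure the spread between these libraries. Sulfasalazine is an anti-inflammatory drug used in bowel disease and arthritis. Per its title, the study looked in the liver transcriptome for how the drug injures that organ.

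The proteasome is a barrel, the 20S core, that can carry a cap at each end. Alpha subunits form the outer rings of the barrel and beta subunits the inner rings, where 3 kinds of beta subunit carry the active sites. The 19S cap binds ubiquitin chains, unfolds the tagged protein with a ring of ATPases and feeds it into the core. Interferon-gamma replaces the 3 active beta subunits with immunoproteasome subunits, which favour peptides for display on class I molecules, and raises the 11S cap, also called PA28. When the proteasome is blocked, the transcription factor NRF1, the product of Nfe2l1, raises most subunit genes together through antioxidant response elements, and NRF2, the product of Nfe2l2, can bind the same kind of site.

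FPKM does not hold the number of reads, so the depth is unknown and counting error is not given. FPKM summed to between 224434 and 260047 per library, of which loci without an Ensembl transcript held 11% to 25.3%. Pearson correlations over the 11969 loci tested, those that reached 1 FPKM in 3 libraries or more, lay between 0.901 and 0.919 for libraries of the same group and between 0.896 and 0.914 for libraries of different groups. The tissue label, liver, was checked on 6 hepatocyte genes. They summed to 26999 FPKM in control library 3 and to between 20811 and 23291 FPKM in the other libraries. Of the 6 genes 5 had negative fold changes after sulfasalazine and 1 a positive one, with a median of -0.24, and 0 passed by limma. Apoc3 and Ahsg were lower in all 3 treated libraries than in any control, and the part of this in the subunits' values was not tested. Control library 3 also stood apart in several immune cell markers, which are given beside the immunoproteasome subunits below.

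All 36 members passed the filter, and 0 members were listed at 0 in any library. Values lay between 0.772 FPKM, for Psmb9 in sulfasalazine library 1, and 55.2 FPKM, for Psmb1 in control library 3. In control libraries 20 of the 36 means lay between 10 and 30 FPKM. Psmb1, a beta subunit without an active site, had the highest level at 49.3 ± 6.24 FPKM (SD, n = 3). The next in order were Psmb4 at 24.5 ± 2.74, Psmb6 at 24.0 ± 1.91, Psma6 at 23.8 ± 3.84 and Psmd2 at 22.4 ± 1.89 FPKM, and these 4 did not differ from each other beyond their spread. At the lower end of the order were Psmb9 at 1.72 ± 0.518, Psmb8 at 3.02 ± 0.772, Psmd1 at 3.36 ± 0.582 and Psmd14 at 4.63 ± 0.551 FPKM. The row for Psmd1 pools it with Armc9, 2810459M11Rik and Gm21972, and the row for Psma4 pools it with Hykk, so these FPKM cannot be given to Psmd1 or Psma4 alone.

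**Figure D1:**
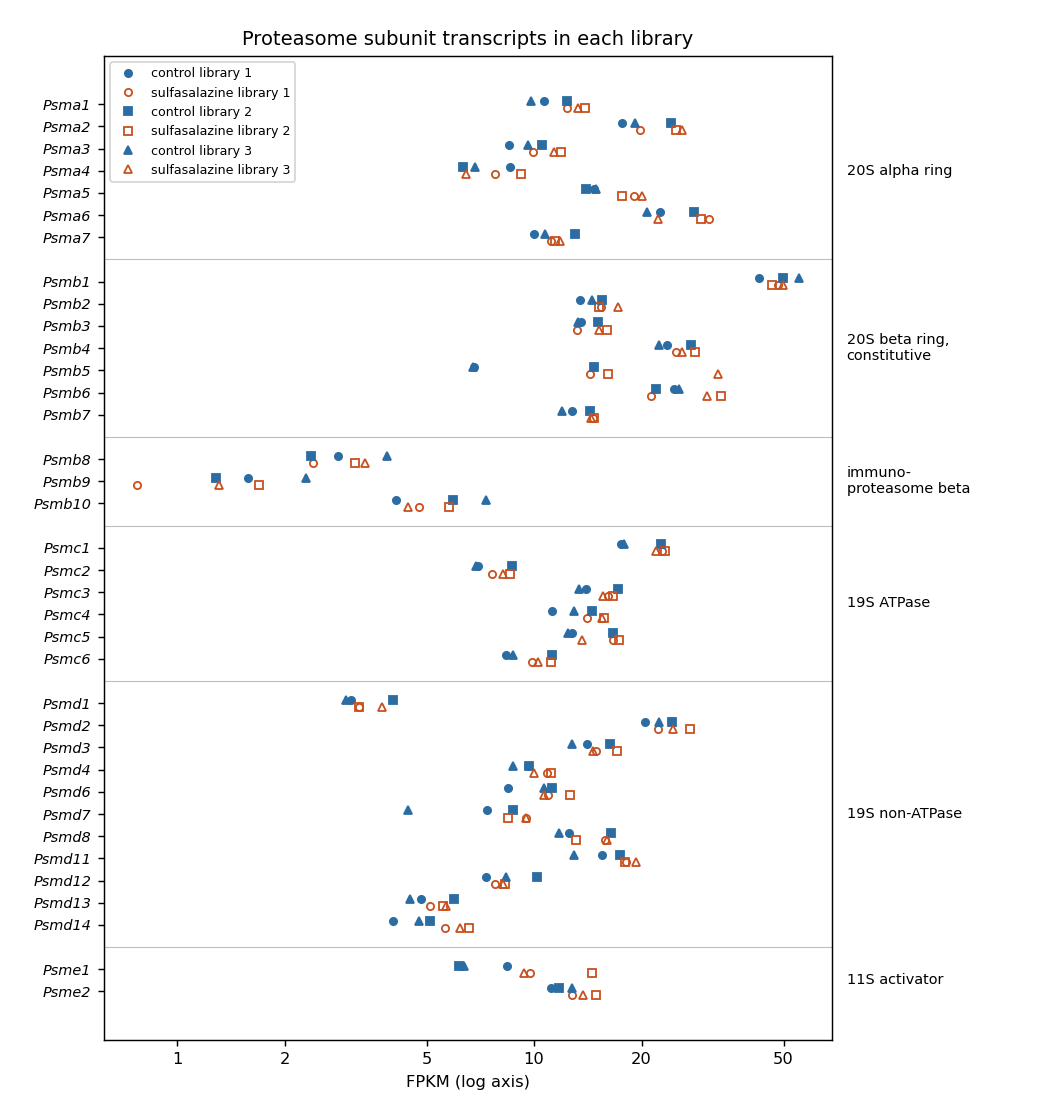
FPKM of 36 proteasome subunit transcripts in each of 6 libraries, on a log axis, grouped by role in the complex; filled blue symbols are control libraries and open orange symbols are sulfasalazine libraries. Psmb1 lies highest and the 3 immunoproteasome subunits lie among the lowest, with most groups overlapping.

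After sulfasalazine the subunits were mostly a little higher, and 0 of 36 passed the test. Over all loci, 2 of 11969, or 0.0167%, passed (limma, Benjamini-Hochberg adjusted p under 0.05). Fold changes were positive for 31 of the 36 members, against 49.6% of all tested loci. Their median log2 fold change was 0.15 on the log2(FPKM + 1) scale, against -0.0021 for all tested loci. In 6 members, Psma5, Psmb7, Psmd4, Psmd11, Psmd14 and Psme1, the 3 treated libraries all lay above the 3 control libraries, and in 0 members all below. Over all tested loci these shares were 6.71% and 6.46%. By limma 4 members were higher at an unadjusted p under 0.05, against 3.64% of all loci, and 0 were lower, against 3.87%. That count of 4 was 1 without control library 3, sulfasalazine library 2 or sulfasalazine library 3, 2 without control library 1 and 5 without either of the other libraries. It was 2 when the fit held a replicate block. The share of all loci under that threshold in those fits is not given here, so their counts cannot be set against 3.64%. The 95% interval of the fold change spanned 0 in 32 of the 36 members, and its upper bound lay under 1 on the log2 scale in 34. These are bulk liver samples, in which fewer cells of a type and less RNA per cell cannot be told apart.

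The number of members without overlap depended on single libraries. Summed over the 36 members, FPKM was 436, 515 and 451 in the control libraries and 504, 553 and 543 in the treated libraries. Control library 2 thus lay above sulfasalazine library 1. Each member was set against its mean over the 6 libraries on the log2(FPKM + 1) scale. The median deviation was -0.16, 0.069 and -0.15 in control libraries 1, 2 and 3, and 0.0054, 0.15 and 0.074 in sulfasalazine libraries 1, 2 and 3. Over all tested loci the same medians lay between -0.022 and 0.040. Control library 2 was the highest control in 27 of the 33 members outside the immunoproteasome and in 0 of the 3 within it. Without control library 2, the members whose groups do not overlap upward numbered 24 in place of 6, against 12.2% of all loci for 3 libraries against 2. Without sulfasalazine library 1 they numbered 15, against 11.5%. Among the 33 members outside the immunoproteasome they numbered 6 without control library 1 and 7 without control library 3. They numbered 7 without sulfasalazine library 2 and 8 without sulfasalazine library 3. The upward share over all loci in these fits is not given here, and 6.71% is no measure for them. Downward, that share lay between 9.69% and 12.0% in these fits, against 6.46% with all libraries. Of the 3 immunoproteasome subunits 0 had groups that do not overlap upward in any fit with 1 library left out. For 3 genes, 0 cannot be told from shares of this size. Downward, 3 members (Psmb1, Psmb10 and Psmd12) had groups that do not overlap without control library 1, against 11.6% of all loci. The part of other differences between these libraries in the shift was not tested.

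**Figure D2:**
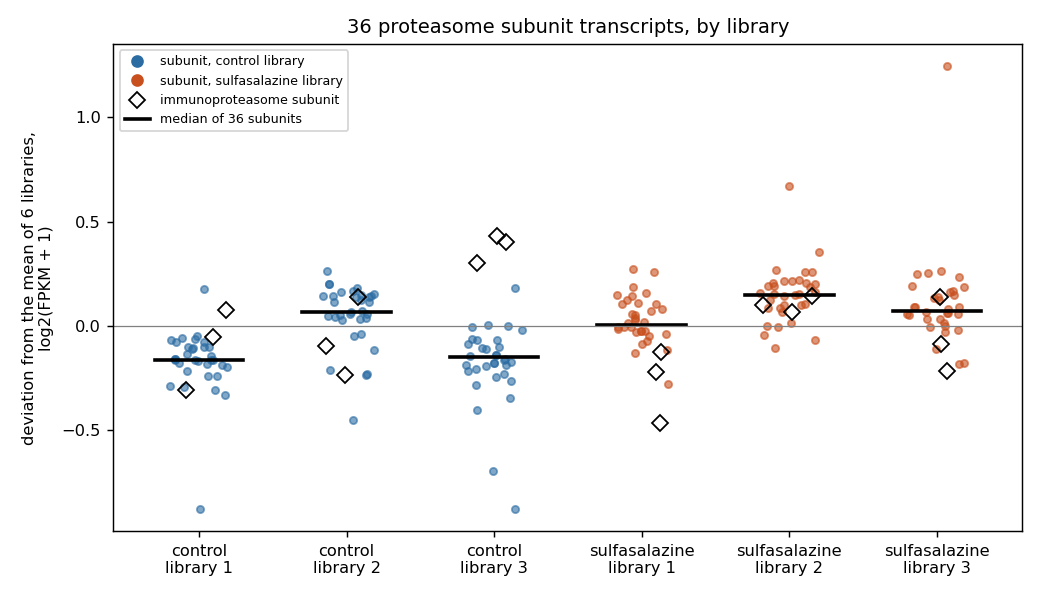
Deviation of each of the 36 subunit transcripts from its own mean over 6 libraries, on the log2(FPKM + 1) scale, by library; bars are medians and open diamonds the 3 immunoproteasome subunits. Medians were -0.16 and -0.15 in control libraries 1 and 3 and 0.069 in control library 2, which lies within the range of the treated libraries, and the 3 diamonds of control library 3 lie highest.

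The alpha ring forms the gate through which proteins enter the core, and its 7 genes had a median log2 fold change of 0.20, all 7 positive. The median was 0.32 without control library 2, 0.17 without control library 1 and 0.15 without sulfasalazine library 2. In each of the last-named fits, those with 0.17 and 0.15, 6 of the 7 were positive. Psma5 was at 14.7, 14.0 and 14.9 FPKM in the control libraries and at 19, 17.7 and 20.1 in the treated libraries. It varied least of all members among controls, and its groups did not overlap. The log2 fold change was 0.36 ± 0.11 (SE; limma, adjusted p = 0.541), higher in 3 of 3 treated libraries. Psma5 lies on chromosome 3 from 108256926 to 108279974 in GRCm38, and exons of 1700010K24Rik on the opposite strand overlap its own. Psma1 was at 10.6, 12.4 and 9.82 FPKM in control and at 12.3, 13.9 and 13.3 in treated libraries. Control library 2 reached just above the lowest treated library there. Psma6, the most abundant alpha subunit, was at 22.6, 28.1 and 20.7 FPKM in control and at 30.9, 29.4 and 22.3 in treated libraries, a broad overlap. Psma7 was at 9.97, 13.0 and 10.7 FPKM in control and at 11.1, 11.4 and 11.8 in treated libraries, all 3 within the control range. The least abundant, Psma4 with its pooled gene, was at 8.57, 6.32 and 6.84 FPKM in control and at 7.79, 9.19 and 6.45 in treated libraries. The groups of Psma4 overlapped. Psma2 had 20.3 ± 3.43 FPKM in control and 23.6 ± 3.33 with sulfasalazine, and Psma3 had 9.55 ± 1.00 and 11.1 ± 0.986 (SD, n = 3 each). Both overlapped between the groups, with log2 fold changes of 0.21 and 0.19.

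Among the 7 constitutive beta subunits 6 fold changes were positive and the median was 0.13, or 0.084 without control library 1 or without sulfasalazine library 2. The active ones are Psmb5, which cuts after hydrophobic residues like chymotrypsin, Psmb6, which cuts after acidic residues, and Psmb7, which cuts after basic residues like trypsin. Psmb5 was at 6.78, 14.7 and 6.76 FPKM in the control libraries and at 14.3, 16.1 and 32.8 in the treated libraries. Control library 2 lay above sulfasalazine library 1, so the groups overlapped, and sulfasalazine library 3 was the highest. Its log2 fold change of 1.07 ± 0.41 (SE; limma, adjusted p = 0.646) was the largest of all members, with a 95% interval from 0.07 to 2.07. Leaving out 1 library at a time gave 0.72 to 1.41, the lowest without sulfasalazine library 3 and the highest without control library 2. Psmb5 also had the widest spread among controls, with a coefficient of variation of 48.8%, against 3.53% for Psma5. Psmb5 lies on chromosome 14 from 54614119 to 54618022, and the microRNA gene Mir686 shares bases with its exons.

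Psmb6 was at 24.7, 21.9 and 25.5 FPKM in control and at 21.2, 33.3 and 30.6 in treated libraries. Sulfasalazine library 1 had the lowest value of all 6 libraries and the other two treated libraries the highest. Psmb7 was at 12.8, 14.3 and 12.0 FPKM in control and at 14.6, 14.7 and 14.4 in treated libraries. The treated libraries lay close together and just above control library 2, with a log2 fold change of 0.16 (limma, adjusted p = 0.821). Among the beta subunits without an active site, Psmb1 was at 42.8, 49.9 and 55.2 FPKM in control and at 48.1, 46.3 and 49.8 in treated libraries. The treated libraries of Psmb1 lay within the control range, and its log2 fold change of -0.03 was 0.0029 after rescaling to annotated loci. Psmb2, Psmb3 and Psmb4 had log2 fold changes of 0.13, 0.08 and 0.11 with overlapping groups.

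Upstream bases are shown for the 4 members whose window held the core of the antioxidant response element, the site through which NRF1 is known to raise subunit genes. The motif searched was TGACNNNGC, on both strands, in the 250 bases before each RefSeq start (GRCm38.p6). Of all 32851 such windows 10.2% held it, and of 33 windows of 30 members 4 did, those of Psmb5, Psmb6, Psmc6 and Psmd12. These letters, or for a match on the other strand their reverse complement, are in capitals below, 5′ to 3′ on the gene's strand, and bases within an annotated exon are left out. The stretches are chr14:54618023-54618245 on the minus strand for Psmb5, chr11:70525107-70525356 on the plus strand for Psmb6, chr14:45329574-45329787 on the plus strand for Psmc6 and chr11:107479278-107479483 on the plus strand for Psmd12.
Psmb5: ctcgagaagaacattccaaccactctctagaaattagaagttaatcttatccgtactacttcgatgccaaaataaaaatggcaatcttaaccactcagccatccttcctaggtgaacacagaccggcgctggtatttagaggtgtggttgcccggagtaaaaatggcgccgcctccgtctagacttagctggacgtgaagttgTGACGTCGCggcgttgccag
Psmb6: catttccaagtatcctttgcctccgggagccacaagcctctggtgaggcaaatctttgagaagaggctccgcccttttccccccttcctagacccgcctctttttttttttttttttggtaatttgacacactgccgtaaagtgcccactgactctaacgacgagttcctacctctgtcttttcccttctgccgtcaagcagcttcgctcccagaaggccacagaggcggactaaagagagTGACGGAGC
Psmc6: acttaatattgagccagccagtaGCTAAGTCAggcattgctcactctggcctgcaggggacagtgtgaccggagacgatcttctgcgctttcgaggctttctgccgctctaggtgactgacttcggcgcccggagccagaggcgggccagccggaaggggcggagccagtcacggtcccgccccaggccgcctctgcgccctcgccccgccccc
Psmd12: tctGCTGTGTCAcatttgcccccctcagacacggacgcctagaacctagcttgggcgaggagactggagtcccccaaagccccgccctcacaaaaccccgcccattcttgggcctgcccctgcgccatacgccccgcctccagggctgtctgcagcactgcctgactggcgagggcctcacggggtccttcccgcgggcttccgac

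In Psmb5 the match began 47 bases before the start and in Psmb6 it began 9 bases before it. In Psmc6 and Psmd12 it lay on the other strand, 227 and 247 bases before the start at its far end. The 4 genes did not share a direction in the libraries: Psmb5, Psmb6 and Psmc6 had log2 fold changes of 1.07, 0.21 and 0.14, and Psmd12 one of -0.07. The core of the interferon-stimulated response element, read as GAAA, any 2 bases and GAAA, was in 2.98% of all windows and in those of Psmb3 and Psmd4, and no member's window held both motifs. A match describes letters only, and a window without one says nothing of the factor.

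**Figure D3:**
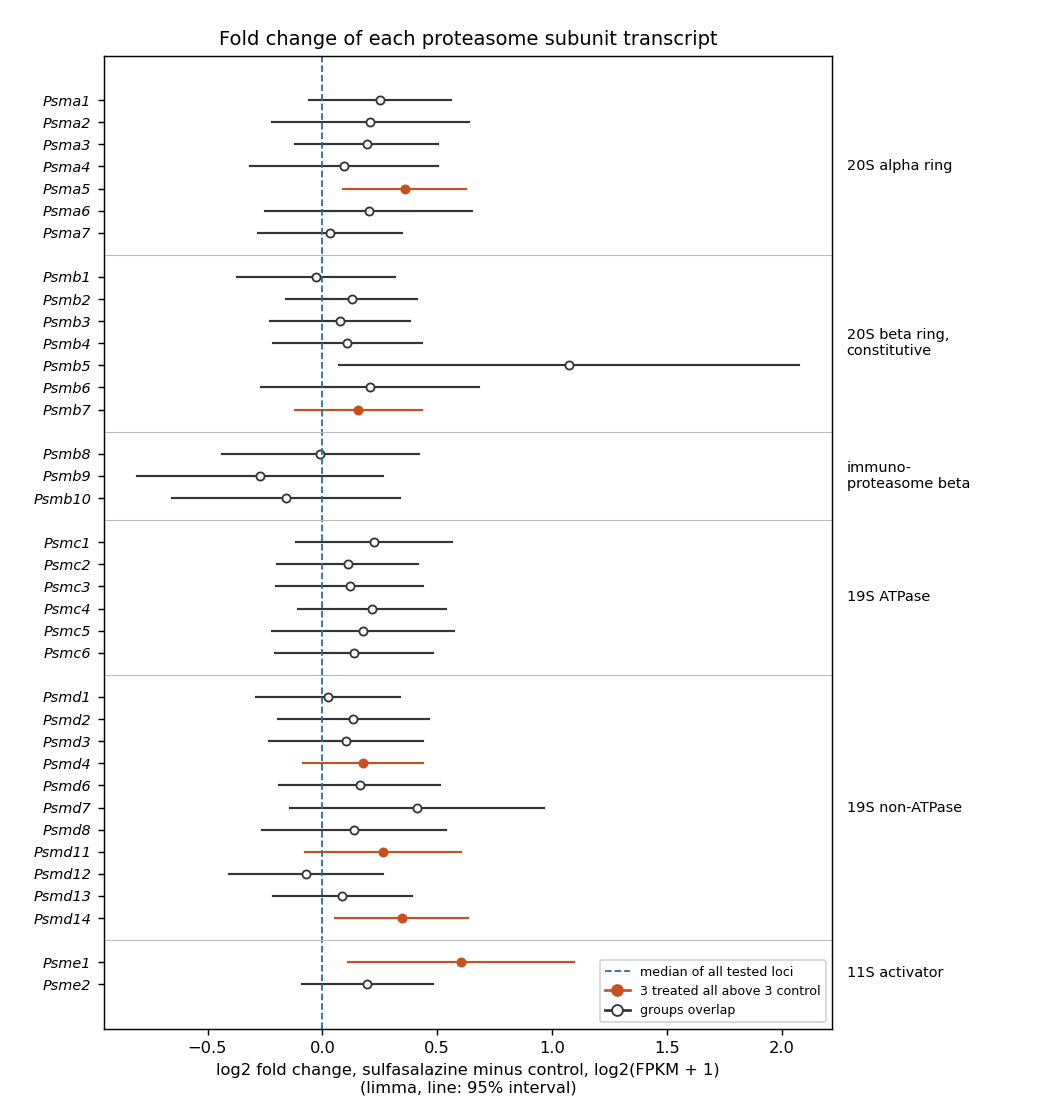
Log2 fold change of each subunit transcript, sulfasalazine minus control, on the log2(FPKM + 1) scale with its 95% limma interval; filled orange points are the 6 genes whose treated libraries all lay above the control libraries, and the dashed line is the median of all tested loci. Psmb5 has the largest value at 1.07 with the widest interval, and the 3 immunoproteasome subunits lie below 0 with intervals that span it, Psmb8 at -0.01 and above 0 after quantile normalization or rescaling.

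The 6 ATPases of the 19S cap, which unfold the tagged protein, had a median log2 fold change of 0.16, all 6 positive. Groups without overlap numbered 0 of 6, against 6.71% of all tested loci upward and 6.46% downward. Psmc1, the most abundant, was at 17.5, 22.7 and 17.9 FPKM in control and at 22.8, 23.3 and 21.9 in treated libraries. Control library 2 alone reached the treated range. Psmc6 was at 8.36, 11.2 and 8.72 FPKM in control and at 9.84, 11.2 and 10.3 in treated libraries, and Psmc2 was at 6.95, 8.67 and 6.86 in control and at 7.64, 8.57 and 8.17 in treated libraries. In both, control library 2 was the highest of the 6 libraries, in Psmc6 by less than the rounding shows. Log2 fold changes of the 6 lay between 0.11 for Psmc2 and 0.23 for Psmc1. Psmc3, Psmc4 and Psmc5 had 14.8 ± 2.03, 12.9 ± 1.65 and 14.0 ± 2.34 FPKM in control and 16.1 ± 0.539, 15.1 ± 0.907 and 15.9 ± 1.96 FPKM with sulfasalazine (SD, n = 3 each), all overlapping. The median of the ATPases was 0.28 without control library 2, 0.10 without control library 1 or without sulfasalazine library 2, and 0.099 without control library 3.

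The 11 non-ATPase subunits of the 19S cap had a median of 0.14 (0.091 without control library 1), with 10 positive. In 3 of them, Psmd4, Psmd11 and Psmd14, the treated libraries all lay above control, against 6.71% of all tested loci. Psmd14 is the deubiquitinase of the cap, which cuts the ubiquitin chain off as the protein enters. It was at 4.04, 5.12 and 4.75 FPKM in control and at 5.64, 6.58 and 6.21 in treated libraries, with no overlap. The log2 fold change was 0.35 ± 0.12 (SE; limma, adjusted p = 0.600), higher in 3 of 3 treated libraries. Psmd14 lies on chromosome 2 from 61711694 to 61800376. Psmd4, a receptor for ubiquitin chains, was at 9.59, 9.68 and 8.70 FPKM in control and at 10.8, 11.2 and 9.96 in treated libraries. The gap between its groups was narrow, and its log2 fold change was 0.18 (limma, adjusted p = 0.786). Psmd11, a scaffold subunit of the lid, was at 15.5, 17.4 and 13.0 FPKM in control and at 18.1, 18.0 and 19.2 in treated libraries, again without overlap.

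Psmd7, the partner of Psmd14 in the lid, had the largest log2 fold change of the cap at 0.41 (limma, adjusted p = 0.765). It was at 7.38, 8.71 and 4.44 FPKM in control and at 9.52, 8.43 and 9.50 in treated libraries. Control library 3 was low, and without it the value was 0.17. Psmd2, a large scaffold subunit, was at 20.5, 24.3 and 22.3 FPKM in control and at 22.3, 27.4 and 24.4 in treated libraries, with overlap. Psmd12 was the 1 cap subunit among the members with a negative value, -0.07, at 7.34, 10.2 and 8.35 FPKM in control libraries and at 7.77, 8.28 and 8.21 with sulfasalazine. It turned to 0.041 without control library 2, its highest library. Psmd1, in its pooled row, was at 3.07, 4.03 and 2.97 FPKM in control and at 3.23, 3.24 and 3.76 in treated libraries, all 3 inside the control range. For the remaining cap subunits Psmd3, Psmd6, Psmd8 and Psmd13 the log2 fold changes were 0.10, 0.16, 0.14 and 0.09, all with overlapping groups, and control means ran from 5.10 FPKM for Psmd13 to 14.4 for Psmd3.

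The 3 immunoproteasome subunits all had negative fold changes, as did Psmb1 and Psmd12 among the other 33 members. Their median was -0.16, each pair of groups overlapped and 0 passed. Psmb8 was at 2.82, 2.37 and 3.87 FPKM in control and at 2.40, 3.15 and 3.36 in treated libraries. Psmb9 was at 1.58, 1.29 and 2.29 FPKM in control and at 0.772, 1.70 and 1.31 in treated libraries. Psmb10 was at 4.09, 5.94 and 7.34 FPKM in control and at 4.77, 5.76 and 4.43 in treated libraries. Control library 3 had the highest value of all 6 libraries for each of the 3. Log2 fold changes were -0.01, -0.27 and -0.16 (limma, adjusted p = 0.995, 0.841 and 0.885), with 95% intervals from -0.44 to 0.42, from -0.81 to 0.26 and from -0.66 to 0.34. Without control library 3 they were 0.14, -0.12 and 0.0040, and the median was 0.0040. That median was -0.30 without control library 1, -0.25 without sulfasalazine library 2, -0.11 without sulfasalazine library 1 and -0.09 without sulfasalazine library 3. Median-of-ratios scaling kept all 3 signs; quantile normalization and rescaling to annotated loci turned that of Psmb8, to 0.0023 and 0.014.

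Summed per list, Kupffer cell, neutrophil and lymphocyte markers were highest in the same library. The 12 Kupffer cell and macrophage genes summed to 338 FPKM in control library 3, against 88.5 and 139 in the other control libraries and 140 to 164 in the treated libraries. All 12 were tested, with 7 positive and 5 negative fold changes, and 0 passed. The 6 neutrophil genes summed to 18.4 FPKM in control library 3 and to 0.629 to 1.54 in the other 5 libraries. Of the neutrophil genes 0 reached the filter for testing, and of the 11 lymphocyte genes 0 did. The 11 lymphocyte genes summed to 1.74 to 5.28 FPKM in control and 2.41 to 3.74 in treated libraries, with Cd79a, Ms4a1 and Gzma among those at 0 in at least 1 library. The 6 dendritic cell genes summed to 12.1 to 42.5 FPKM in control and 27.7 to 44.7 in treated libraries, almost all of it Cd74, and Cd209a was at 0 in at least 1 library. The 6 stellate cell genes, too, summed highest in control library 3, at 94.7 FPKM against 47.1 to 63.1 in the other 5. Of these 5 were tested, all 5 with negative fold changes and a median of -0.41, and 0 passed; Dcn and Reln were lower in every treated library than in any control. The 6 sinusoidal endothelial genes summed to 35.6 to 44.9 FPKM over all 6 libraries. Blood genes summed to 849 FPKM in sulfasalazine library 2 and to 254 to 429 in the other 5. The part of these cells in the immunoproteasome values was not tested.

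**Figure D4:**
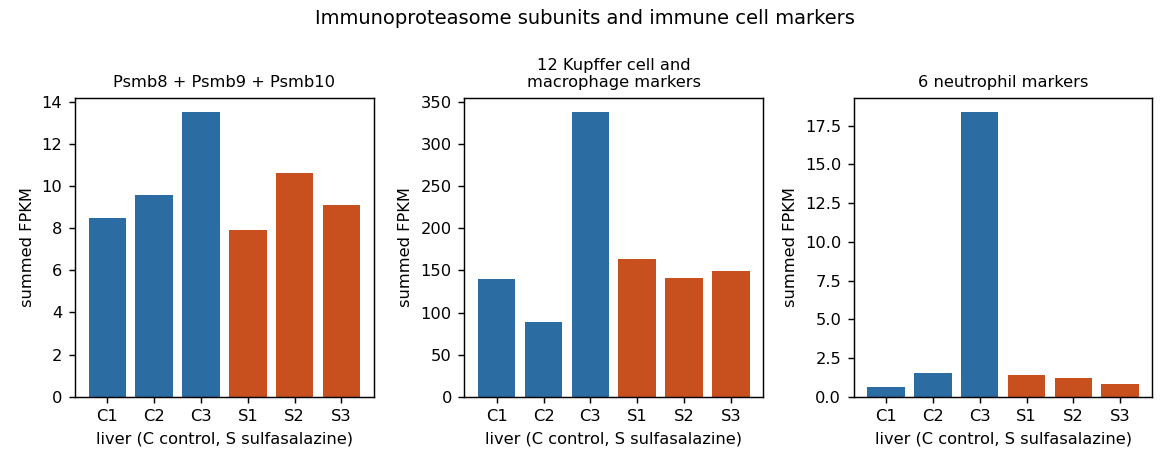
Summed FPKM of the 3 immunoproteasome subunits, of 12 Kupffer cell and macrophage markers and of 6 neutrophil markers in each library (C, control; S, sulfasalazine). All 3 sums are highest in control library 3, at 13.5, 338 and 18.4 FPKM.

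Since each immunoproteasome subunit takes the place of a constitutive one, their FPKM were also set as ratios within a library. Psmb9 stood at 6.38%, 5.88% and 8.99% of Psmb6 in control and at 3.64%, 5.10% and 4.27% in treated libraries. These values did not overlap, and the mean log2 ratio was -3.84 ± 0.324 in control and -4.54 ± 0.243 in treated libraries (SD, n = 3 each). Their difference of -0.70 was larger than the pooled SD of 0.287, and it was -0.51 without control library 3. By themselves Psmb9 and Psmb6 each overlapped between the groups, with fold changes of -0.27 and 0.21 on the log2(FPKM + 1) scale. Psmb9 was the least abundant member, and how often other ratios separate the groups was not computed. Psmb10 stood at 32.0%, 41.5% and 61.3% of Psmb7 in control and at 32.6%, 39.2% and 30.7% in treated libraries. Those groups overlapped, and the log2 difference of -0.35 lay within the pooled SD of 0.358. Psmb8 stood at 41.5%, 16.1% and 57.3% of Psmb5 in control and at 16.7%, 19.6% and 10.2% in treated libraries. Control library 2 lay among the treated libraries there, and the difference was -1.17 with a pooled SD of 0.758. On the log2(FPKM + 1) scale Psmb8 itself had a fold change of -0.01 and Psmb5 one of 1.07. The coefficient of variation of Psmb5 among controls was 48.8%. The 3 ratios are given as a description, and no test was run on them.

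**Figure D5:**
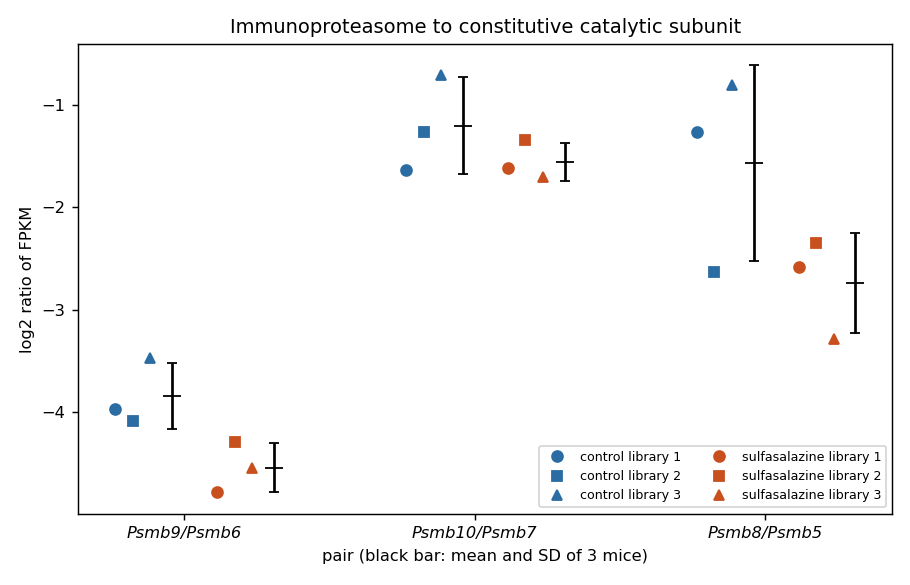
Log2 ratio of FPKM of each immunoproteasome subunit to the constitutive subunit it replaces, by library, with the mean and SD of 3 libraries in black. The Psmb9/Psmb6 ratio separates the groups, at -3.84 in control and -4.54 in treated libraries, though neither gene does by itself. The other ratios overlap.

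The 11S cap subunits, which interferon-gamma raises together with the immunoproteasome, had positive fold changes, 2 of 2. Psme1 was at 8.37, 6.14 and 6.38 FPKM in the control libraries and at 9.75, 14.5 and 9.40 in the treated libraries. All treated libraries lay above control, sulfasalazine library 2 by the most. Its log2 fold change was 0.60 ± 0.20 (SE; limma, adjusted p = 0.586), with a 95% interval from 0.11 to 1.10, and 0.42 without sulfasalazine library 2. Psme2 was at 11.2, 11.7 and 12.8 FPKM in control and at 12.7, 14.9 and 13.7 in treated libraries. Here control library 3 reached just above the lowest treated library, and the log2 fold change was 0.20 (limma, adjusted p = 0.780). Both lie on chromosome 14, Psme1 from 55578123 to 55581529 and Psme2 from 55587441 to 55591113, with 5911 bases between them and on opposite strands. Exons of Emc9 on the opposite strand overlap those of Psme1.

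Psmb8 and Psmb9 lie in the major histocompatibility region of chromosome 17, from 34197721 to 34201454 and from 34181987 to 34187764, on either side of the peptide transporter gene Tap1. Exons of Psmb9 overlap those of Tap1 on the opposite strand, so their reads cannot be told apart there without strand, and no source used here says whether the authors' counting used strand. Tap1 was at 2.14, 2.32 and 3.84 FPKM in control and at 2.83, 3.18 and 2.48 in treated libraries. Tap2, its partner in the transporter, was at 5.75, 6.54 and 8.25 FPKM in control and at 5.48, 7.53 and 6.07 in treated libraries. In both, control library 3 was the highest library, as it was for Psmb8 and Psmb9. Among 10 genes of class I antigen processing and its interferon regulators 6 fold changes were positive and 4 negative, the median was 0.024, and 0 passed. B2m, the light chain of class I molecules, had 554 ± 96.4 and 482 ± 83.2 FPKM (SD, n = 3 each). Nlrc5, an activator of class I genes, had 3.71 ± 0.886 and 4.45 ± 0.429 FPKM.

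Of the other 50 genes of the pathway 47 were tested and 0 passed, with 29 positive and 18 negative fold changes and a median of 0.043. Nfe2l1, whose product raises subunit genes, was at 7.99, 7.88 and 3.52 FPKM in control and at 8.58, 11.9 and 8.79 in treated libraries. The groups did not overlap, with control library 3 well below the rest, and the log2 fold change was 0.58 ± 0.30 (SE; limma, adjusted p = 0.743), or 0.25 without control library 3. Nfe2l2 was at 11, 6.26 and 8.52 FPKM in control and at 6.26, 12.3 and 8.65 in treated libraries, a full overlap. Ddi2, the protease known to activate NRF1, was at 29.3, 16.4 and 24.2 FPKM in control and at 14.7, 15.5 and 17.3 in treated libraries (limma, adjusted p = 0.708). Control library 2 lay within the treated range for Ddi2.

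Of 11 deubiquitinases and shuttles bound to the proteasome 6 fold changes were positive, with a median of 0.064. Usp14, a deubiquitinase of the cap, was at 2.72, 4.05 and 3.09 FPKM in control and at 4.69, 4.71 and 4.40 in treated libraries. Its treated libraries lay close together above all controls, and the log2 fold change was 0.40 ± 0.14 (SE; limma, adjusted p = 0.598). Among 8 tested assembly chaperones 4 were positive and 4 negative, with a median of 0.0062. Pomp, which matures the core, had 6.53 ± 0.500 FPKM in control and 6.92 ± 0.736 in treated libraries, and Psmd10, which helps build the cap, had 1.93 ± 0.653 and 2.85 ± 0.237 (SD, n = 3 each). Of 5 tested further subunits and activators 3 were positive and 2 negative. Psme4, an alternative cap, was at 11.2, 12.9 and 12.7 FPKM in control and at 14.0, 14.4 and 12.9 in treated libraries, which cleared the highest control by less than the rounding shows. Sem1, a small cap subunit, was at 3.27, 3.18 and 2.51 FPKM in control and at 2.32, 1.65 and 2.22 in treated libraries. Its treated libraries all lay below control (limma, adjusted p = 0.631).

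Among 10 genes for ubiquitin, its activating enzymes and the p97 complex 7 fold changes were positive, with a median of 0.027. Vcp, the p97 ATPase that pulls tagged proteins out of complexes, was at 21.1, 25.1 and 21.3 FPKM in control and at 25.8, 29.1 and 28.6 in treated libraries. No treated library lay below the highest control, and the log2 fold change was 0.30 (limma, adjusted p = 0.685).

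The table's own pathway column, which did not choose the members, marks 33 loci as proteasome, and 28 of the 36 members are among them. The 8 members without the entry are Psma2, Psma3, Psmb6, Psmb8, Psmb9, Psmc6, Psmd1 and Psmd13. The 5 marked loci that are no member are Psma8, Ifng, Psmf1, Pomp and Psme4. Exons of 11 members share bases with another gene's exons, on the opposite strand in 10, and Psmb5, Psmb6 and Psmb7 have named pseudogenes, so their FPKM may include or lose reads of such copies. For 5 members the table also holds rows of the same name without an Ensembl transcript, at or under 2.70 FPKM in each library, which were left out.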

How the data were processed

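Liver RNA-seq from 6 libraries was analysed as 1 table with 1 column per library. The authors deposited FPKM per locus, per the file headers; cutadapt, FastQC, Bowtie2, StringTie and GRCm38.p5 are named in the submitters' processing notes, without versions; no source used here names the annotation release. Transcripts were matched to GENCODE M21 (GRCm38) for names and positions. FPKM is scaled within a library, so a few abundant loci can move all others. The test was limma 3.58.1 (R 4.3.3) with its trend option on log2(FPKM + 1), over the 11969 loci that reached 1 FPKM in 3 libraries or more, and p was adjusted over all of these by Benjamini-Hochberg at 0.05. This scale understates changes of low genes. The labels call the libraries triplicates and do not say whether each is a separate mouse. The members and lists were chosen with earlier results of these data known, so no set test was run. The procedure was tested on simulated data. Alternatives changed pseudocount, filter, scaling, variance model, loci, block and libraries.

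Values in every library are given for the active beta subunits, the 11S subunits, Psmd14, Psmd4, Psmc6, Psma7, up to 5 members per direction with the smallest p, and the highest and lowest member of each role; Psmd7 and Psmd11 were added after their values were seen. Of each further list the most abundant gene, that with the smallest p and some further genes are named, except a few that are not reported here. Promoter sequences are from RefSeq (GRCm38.p6), where 30 of 36 members matched. Plots used matplotlib 3.10.9 (Python 3.11.15).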

Additional observations from a re-analysis of the deposited data

How the results depend on the processing

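Of the members 0 passed under any setting run. All 36 were tested in each, except with a minimum of 5 FPKM. That filter kept 1 of the 3 immunoproteasome subunits and 10 of the 11 non-ATPase subunits of the cap. The 2 loci called over the whole table became 1 with a pseudocount of 0.1 or 0.01 or a minimum of 0.1 FPKM, 0 with no filter or with the replicate number as a block, 7 with a minimum of 5 FPKM, 45 when limma ran without its trend, 12 when only loci that carry an Ensembl transcript were tested, 7 with FPKM summed per gene name and 6 after rescaling to annotated loci, an alternative chosen after seeing the data. Leaving out 1 library gave 1 to 8 loci. Members with treated livers all above control numbered 6 to 24 when 1 library was left out. In those of these fits for which the share over all loci is given above, it was also higher than 6.71%. After rescaling to annotated loci such members numbered 10. This rescaling lifted the share over all loci from 6.71% to 8.27% and that of positive loci from 49.6% to 54.1%. The count was within 1.5 times of 6 under the other settings. The median log2 fold change of the members stayed between 0.10 and 0.21 over all settings, and the 3 catalytic ratios stayed negative. With the replicate number as a block the median was 0.15. Deviations from the group means of libraries with the same number had correlations of 0.0097, -0.067 and -0.022, so the number was not taken as a pairing. Of the members' fold changes 632 values kept their sign and 13 turned. Psmb1 turned to 0.0029 and Psmb8 to 0.014 after rescaling, and Psmb8 to 0.0023 with quantile normalization. When 1 library was left out the ranges were -0.017 to 0.21 for Psma4, -0.041 to 0.13 for Psma7, -0.13 to 0.055 for Psmb1, -0.13 to 0.14 for Psmb8, -0.35 to 0.0040 for Psmb10, -0.040 to 0.13 for Psmd1 and -0.17 to 0.041 for Psmd12. For all of these changes the cause was not tested. How far depth limits low members such as Psmb9 is unknown from FPKM.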
